A study of Mus musculus with 6 samples.

Results

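HL-1 cells treated with native-size hyaluronan (n-HA, 1000 kDa per the labels) were compared with untreated HL-1 cells, with 2 arrays in each group. These 4 arrays were taken from the 6 of the series. The other 2 held o-HA cells, which received hyaluronan hexasaccharides. Of the 25697 probes on the array, 5378 probes of 4285 named genes entered the comparison, because at least 2 of the 4 arrays detected each of them (a detection p-value under 0.05). HL-1 is a line of mouse atrial cardiomyocytes that came from an atrial tumour of mice carrying the SV40 T antigen under an atrial natriuretic factor promoter, so its cells divide in culture. All groups were grown in Claycomb medium, which per the study's methods contains norepinephrine, and hyaluronan was added to this medium for a day before the cells were scraped. No vehicle is named for the untreated cells. The question was whether hyaluronan outside a cardiomyocyte alters transcription inside it.

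Hyaluronan is a long unsulphated chain of repeating disaccharides made at the plasma membrane by the synthases Has1, Has2 and Has3. Cells bind it through CD44 and RHAMM (the product of Hmmr), and CD44 is anchored to the cortical actin network through its cytoplasmic tail. The hyaluronidases and exoglycosidases of the lysosome break the chain down. Chain length matters for signalling, and native chains are generally described as calming where short fragments stimulate.

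The 2 n-HA arrays were not alike, and this bears on every value below. Across probes, n-HA replicate 1 had correlations of 0.803 to 0.866 with the remaining arrays (log2 intensity), whereas those among the remaining 5 were 0.961 to 0.990. The replicates of a group differed by a median of 0.17 (log2) in untreated and in o-HA cells and by 0.57 in n-HA cells. At least 2-fold differences between replicates were seen for 4 of 5378 probes in untreated cells and for 1467 (27.3%) in n-HA cells. Both n-HA arrays were also dimmer, with a mean bead intensity of 110.1 and 93.3 against 140.9 and 121.6 in untreated cells, and with 4767 and 4546 detected probes against 5763 and 5449. Each group lay at its own pair of places on 1 chip, so place and treatment cannot be told apart. A difference in RNA per cell cannot be told apart from a difference in the make-up of the culture in such bulk samples.

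No probe passed the test for n-HA against untreated cells. By limma, with 3 groups sharing 1 estimate of spread, 0 of 5378 probes had an adjusted p under 0.05 (0%, lowest adjusted p = 0.157). Before adjustment 1290 probes had p under 0.05 (24%), 547 of them with n-HA above untreated cells (10.2%) and 743 with n-HA below (13.8%). With n-HA replicate 2 alone, 1149 of 4945 probes passed, and with n-HA replicate 1 alone 3172 of 5090 did. Calls made with 1 n-HA array rest on the spread between untreated and between o-HA replicates, with the lone array assumed to vary as they do. Because the arrays differ so much, the genes are described by the values of both replicates. A probe was called agreeing when the nearest values of the groups lay at least 1.5-fold apart (0.58 on the log2 scale) and both arrays of the brighter group detected it. This is a count with no test.

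By this rule 175 probes were higher with n-HA (3.25% of those tested) and 420 were lower (7.81%). Groups that did not overlap at all were far more common, at 25.3% of probes for n-HA higher and 31.5% for n-HA lower. The agreeing probes named 165 genes on the high side and 372 on the low side, while 8 and 25 probes had no symbol. Replicate 1 usually stood further from the untreated cells. It lay above replicate 2 in 154 of the 175 higher probes and below it in 356 of the 420 lower ones. Median differences from the untreated mean were 1.49 (replicate 1) and 0.80 (replicate 2) for the higher probes, and -1.39 and -0.89 for the lower ones. The last probes inside the limit had gaps of 0.587 (higher) and 0.585 (lower), and the first outside 0.585 and 0.584.

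Detection was uneven between the directions. Of the 420 lower probes, 156 were undetected on both n-HA arrays and 100 more on replicate 1 only, whereas 165 of the 175 higher probes were detected on all 4 arrays. Among the 3102 probes detected on all 4 arrays, 165 were higher (5.32%) and 154 lower (4.96%). That filter itself removes probes that were undetected with n-HA, so these shares do not show whether the low side was in excess. The direction of the higher genes also rested on the scaling of the arrays. Without normalization between arrays the median of all probes lay at -0.43, 0 probes met the rule on the high side and 1555 did on the low side. With the authors' normalized values 299 were higher and 459 lower, which is 39.4% higher among agreeing probes against 29.4% here.

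The arrays were also paired so that no array served in both pairs. Across 5378 probes, n-HA replicate 1 minus untreated replicate 1 correlated with n-HA replicate 2 minus untreated replicate 2 at r = 0.524, and at r = 0.437 with the untreated arrays exchanged. Probes of 1 array share its labelling and its scaling, so these are descriptions. The first difference was the wider one, with an SD of 1.10 across probes against 0.51 for the second. Of the 188 probes at least 2-fold lower in the pair of replicates 2, 175 (93.1%) were lower in the pair of replicates 1, against 49.8% of all probes, with a median of -1.42. Of the 71 probes at least 2-fold higher, 56 (78.9%) were also higher in the other pair, against 50.1% of all probes, with a median of 0.48. The pairs shared the direction for most of these probes, while the sizes differed.

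**Figure D1:**
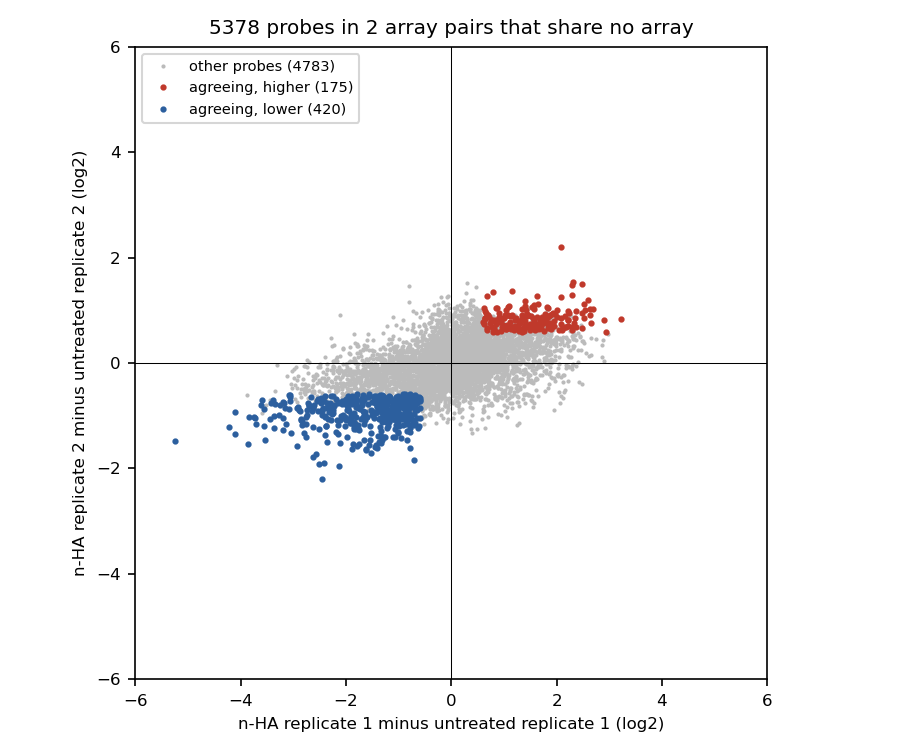
Each point is 1 of the 5378 probes tested. The x axis is n-HA replicate 1 minus untreated replicate 1 and the y axis n-HA replicate 2 minus untreated replicate 2, both in log2 units, with the 175 agreeing higher probes in red, the 420 agreeing lower probes in blue and the other 4783 in grey. The cloud is wider along x (SD 1.10) than along y (SD 0.51).

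The genes with several agreeing probes are given first. Which stretch of a transcript each probe reads was not analysed here. Of 634 genes with at least 2 tested probes, all probes agreed lower in 15 genes and higher in 1. The genes were Asl, Decr2, Rbbp7, Rab7, Snx19, Irak2, Egln1, Nsun5, Tmco3, Aifm2, Wwtr1, Gys1, Gemin6, Eef2 and E130309D02Rik on the low side and Gnptg on the high side. Over all agreeing probes, the other tested probes of the same gene were lower in 140 of 210 cases (66.7%, median -0.48) for the low side. For the high side they were higher in 23 of 52 cases (44.2%, median -0.21), where 50.3% of all probes were higher. Other probes thus shared the direction more often on the low side than on the high side. Where 2 probes of a gene both agreed, each was counted as the other of its partner, which held for 50 of the low cases and 4 of the high ones. The filter also let in 555 probes detected on both untreated and neither n-HA array, against 78 of the reverse kind. How far this filter and this counting made the sides differ was not tested.

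Rbbp7, which encodes a histone-binding subunit shared by several chromatin complexes, was low on 3 probes. Its brightest probe read 10.47 and 10.45 (log2 intensity) in untreated replicates 1 and 2, and 6.37 and 9.11 in n-HA replicates 1 and 2. The next read 9.27 and 9.08 in untreated cells and 5.55 and 8.03 with n-HA. On the dimmest, 6.19 and 6.13 in untreated cells stood against 4.33 and 4.59 with n-HA, which neither n-HA array detected, so that the level was at least 2.49-fold lower. Both n-HA arrays lay below both untreated arrays on each probe, with replicate 1 lower by far on the bright ones (differences of the means -2.72, SE 0.82, and -2.38, SE 0.75, adjusted p = 0.171 by limma for both). Eef2, the elongation factor that moves the ribosome along the message, read 9.92 and 10.35 in untreated cells and 7.76 and 9.27 with n-HA on its brightest probe. Its other probes read 9.01 and 9.28 against 7.02 and 8.19, and 7.64 and 8.04 against 5.58 and 7.04. The 3 differences of -1.62, -1.54 and -1.52 were close to each other, although replicate 1 was again the lower array on all of them. The promoters of these genes, and of Decr2, Castor1 and Efnb1, are shown because each gene was low or high on both n-HA arrays and, for the first 3, on every tested probe. Sequences are from RefSeq on build GRCm38.p6, 5′ to 3′ on the gene's strand, and capitals mark a GC box (GGGCGG, or CCGCCC on the other strand), a CCAAT box (CCAAT or ATTGG) or a TATA box (TATAAA or TTTATA), with no match overlapping another. Rbbp7 lies at chrX:162760122-162760421 on the plus strand, Eef2 at chr10:81176381-81176680 on the plus strand, and Decr2 at chr17:26090115-26090414 on the minus strand.
Rbbp7: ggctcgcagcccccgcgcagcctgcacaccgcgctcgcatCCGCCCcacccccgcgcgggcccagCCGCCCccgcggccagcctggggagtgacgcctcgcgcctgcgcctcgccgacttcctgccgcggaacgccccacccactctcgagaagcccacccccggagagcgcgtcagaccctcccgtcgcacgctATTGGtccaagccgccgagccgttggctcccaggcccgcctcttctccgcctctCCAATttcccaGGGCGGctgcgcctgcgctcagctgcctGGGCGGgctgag
Eef2: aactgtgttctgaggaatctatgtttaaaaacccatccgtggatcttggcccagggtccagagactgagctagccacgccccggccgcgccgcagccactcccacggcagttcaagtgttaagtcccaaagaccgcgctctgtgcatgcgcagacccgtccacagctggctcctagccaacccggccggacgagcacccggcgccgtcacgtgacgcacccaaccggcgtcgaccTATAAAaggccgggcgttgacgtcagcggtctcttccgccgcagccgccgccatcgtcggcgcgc
Decr2: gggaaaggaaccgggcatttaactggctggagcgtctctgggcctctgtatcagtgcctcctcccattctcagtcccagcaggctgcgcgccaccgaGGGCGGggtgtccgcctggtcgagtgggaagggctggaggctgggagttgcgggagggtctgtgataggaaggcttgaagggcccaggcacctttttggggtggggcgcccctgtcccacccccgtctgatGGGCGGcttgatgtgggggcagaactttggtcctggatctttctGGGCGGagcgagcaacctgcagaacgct

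Among the promoters of these low genes, those of Rbbp7 and Decr2 shared the GC box and that of Eef2 lacked it. That of Rbbp7 held 4 GC boxes and 2 CCAAT boxes, that of Eef2 1 TATA box and that of Decr2 3 GC boxes. Of 32851 mouse promoters of this length, 35.7% held a GC box, 37.4% a CCAAT box and 13.6% a TATA box. A further search for an ETS site (CCGGAAGT or ACTTCCGG, in 3.89% of promoters) found 0 matches in any of them. A match is a string of letters and not a shown binding site.

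Decr2 encodes a peroxisomal reductase needed to oxidise unsaturated fatty acids. It read 7.20 and 7.60 in untreated cells and 4.28 and 6.02 with n-HA on the brighter probe, and 7.27 and 7.20 against 4.42 and 6.12 on the other. Replicate 1 was not detected on either probe, so the gap rests on replicate 2 as the nearer value (differences -2.25, SE 0.57, and -1.97, SE 0.53). Asl, the urea-cycle and arginine-making enzyme argininosuccinate lyase, was low on both n-HA arrays, near the detection limit. It read 6.40 and 6.87 in untreated cells against 4.78 and 5.24 with n-HA, and 6.16 and 6.32 against 4.89 and 4.91 on a second probe. Only 1 n-HA array detected the first probe, so how alike the replicates were cannot be read from it. Both replicates lay more than 2-fold below both untreated arrays (differences -1.62, SE 0.28, and -1.34, SE 0.21, adjusted p = 0.157 by limma). Rab7, the GTPase of late endosomes, was low too but mostly on replicate 1, at 9.11 and 9.16 against 5.41 and 8.0, and at 7.50 and 7.89 against 4.88 and 6.67.

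Irak2, a kinase of the Toll-like receptor pathway, was an example of close replicates with a smaller gap. Its probes read 6.59 and 6.53 in untreated cells against 5.79 and 5.66 with n-HA, and 6.21 and 6.20 against 5.31 and 5.34. Egln1, the oxygen sensor that marks hypoxia-inducible factors for destruction, read 6.38 and 6.16 against 4.74 and 5.23, and 6.0 and 5.47 against 4.34 and 4.76. Neither n-HA array detected the dimmer Egln1 probe, where the level was at least 1.85-fold lower. Nsun5, a methyltransferase of ribosomal RNA, stood at -1.60 and -1.01, Tmco3 at -1.61 and -1.24, and Aifm2, which protects membranes from lipid peroxidation, at -1.52 with a second probe at least 1.56-fold lower. Snx19, a sorting nexin, was at least 1.57-fold and at least 1.29-fold lower on its probes. The only gene that agreed higher by the 1.5-fold rule on every one of several tested probes was Gnptg, a subunit of the enzyme that tags lysosomal hydrolases with mannose 6-phosphate. It read 7.32 and 7.17 in untreated cells against 8.90 and 7.93 with n-HA, and 6.14 and 5.64 against 7.79 and 6.77. Before normalization the bead intensities of the groups overlapped on both probes, at 292 and 196 against 432 and 178, and at 149 and 94.2 against 220 and 109.

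**Figure D2:**
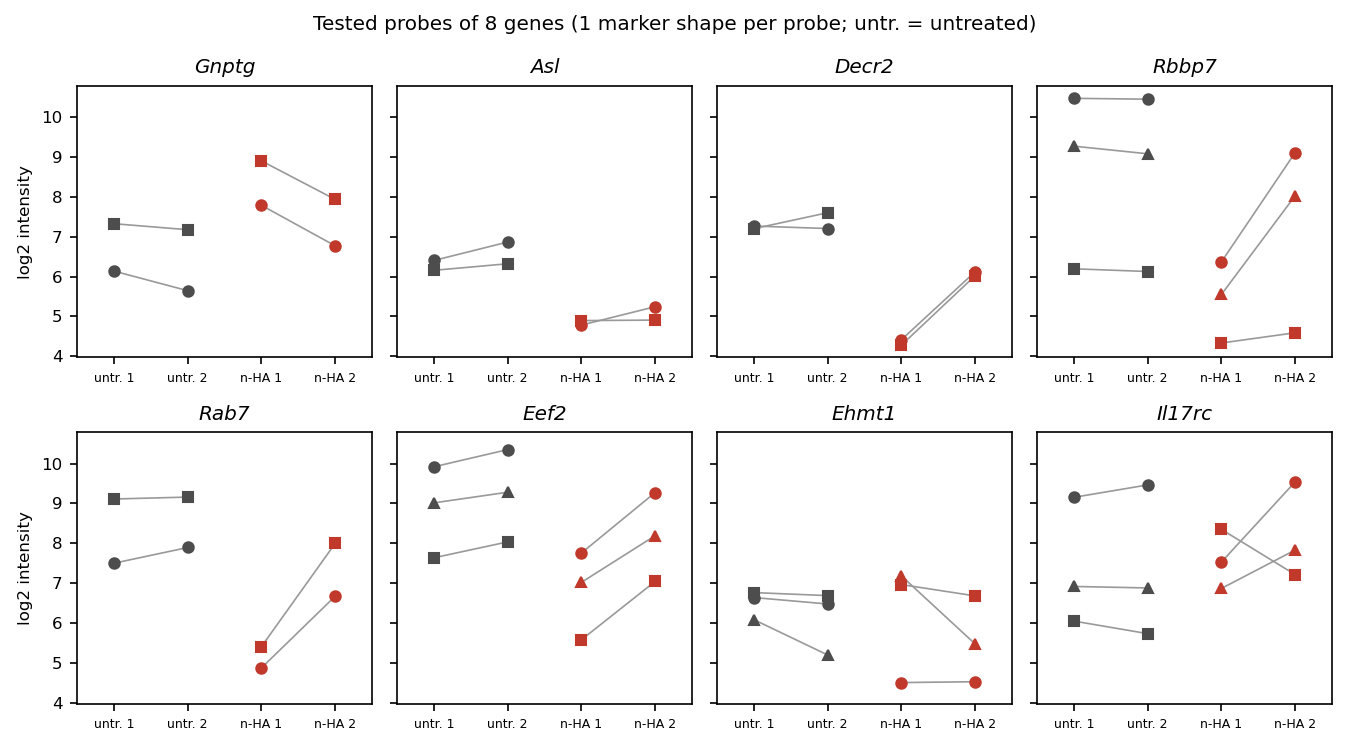
Log2 intensity (y axis) of every tested probe of 8 genes on the 2 untreated arrays (grey) and the 2 n-HA arrays (red), with 1 marker shape per probe. Every probe of Gnptg is higher with n-HA, every probe of Asl, Decr2, Rbbp7, Rab7 and Eef2 is lower, and for Ehmt1 and Il17rc the probes of 1 gene go different ways.

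Ehmt1, a methyltransferase for histone H3 lysine 9, had the widest gap on the low side but on 1 probe only. That probe read 6.64 and 6.48 in untreated cells, 6.58 and 6.19 in o-HA cells, and 4.51 and 4.53 with n-HA. The n-HA replicates were nearly equal and undetected, so the level was at least 3.29-fold lower (adjusted p = 0.157 by limma). Its other tested probes read 6.76 and 6.69 in untreated cells against 6.96 and 6.68 with n-HA, and 6.08 and 5.20 against 7.18 and 5.47. The low value of Ehmt1 was therefore not shared by the rest of its probes. Snx17 and Ppm1b were like it, at least 2.28-fold and at least 2.21-fold lower on the probe in question, with other probes at 1.33 (Snx17) and at 1.15 and 0.61 (Ppm1b).

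Asah1, which encodes acid ceramidase, the lysosomal enzyme that splits ceramide, came next. It read 6.85 and 7.25 in untreated cells, 6.87 and 6.78 in o-HA cells, and 4.40 and 5.04 with n-HA (difference -2.33, SE 0.30). Stard10, a phospholipid carrier, read 6.96 and 7.11 in untreated cells, 6.15 and 6.37 in o-HA cells, and 4.33 and 5.33 with n-HA (difference -2.20, SE 0.36). Both had n-HA arrays far below the untreated ones, with replicate 1 undetected and replicate 2 just detected. The o-HA values stand beside them without comparison, because o-HA was given at another dose and shares the untreated arrays. Lhfp, a membrane protein of the tetraspan type, read 6.74 and 6.65 against 4.38 and 5.16 with n-HA, while a dim second probe stood at 0.22.

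Genes of the cell cortex were among the widest low gaps. Dst, a linker of the plakin family that joins cytoskeletal filaments, read 7.30 and 7.22 in untreated cells and 5.64 and 5.77 with n-HA. Both n-HA arrays detected Dst and differed by little, and both lay more than 2-fold below the untreated ones (difference -1.56, SE 0.21, adjusted p = 0.157 by limma). Svil, the actin-binding supervillin, read 6.87 and 6.66 against 4.31 and 4.93, with a second, dim probe at -0.23. Epb41l1, a band 4.1 protein that ties membrane proteins to spectrin and actin, read 6.42 and 6.50 against 4.54 and 4.87. For Svil and Epb41l1 replicate 1 was undetected and replicate 2 detected. Cbl, the ubiquitin ligase that sends growth factor receptors for breakdown, read 6.08 and 6.04 against 4.45 and 4.39. Neither n-HA array detected Cbl, so that it was at least 2.33-fold lower.

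Genes of DNA metabolism and the cell cycle were also among the widest low gaps. Ung, the glycosylase that removes uracil from DNA, read 7.12 and 7.31 in untreated cells against 4.61 and 5.39 with n-HA, although its second probe stood at -0.30 with replicate 1 above the untreated arrays. Cdk2, the kinase of S-phase entry, read 6.36 and 6.0 against 4.57 and 4.42, at least 2.52-fold lower, and its second probe stood at -0.54. E2f6, a repressor of the E2F family, read 8.56 and 8.52 against 4.70 and 6.99, and a dim second probe stood at 0.12. The 2 n-HA arrays were thus close together for Cdk2, which neither detected, and far apart for E2f6. Pfkp, the platelet form of phosphofructokinase, which commits glucose to glycolysis, read 9.15 and 8.96 against 5.60 and 7.51.

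The high side was led by Grina, a membrane protein of the family of Bax inhibitor 1. Grina read 6.79 and 6.61 in untreated cells, 7.76 and 7.79 in o-HA cells, and 9.28 and 8.12 with n-HA (difference 2.0, SE 0.39, adjusted p = 0.159 by limma). Both n-HA arrays lay at least 1.34 above the untreated ones. Il17rc, a subunit of the interleukin 17 receptor, read 6.05 and 5.73 against 8.35 and 7.21. Its other probes did not follow it, at 9.15 and 9.46 against 7.53 and 9.54, and at 6.92 and 6.88 against 6.87 and 7.83. Rnu6, the U6 RNA of the spliceosome, read 5.92 and 4.86 against 8.0 and 7.05, and its untreated replicates lay far apart.

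Castor1 and Efnb1 were the high genes with the closest n-HA replicates among the widest gaps. Castor1, a cytosolic arginine sensor that restrains mTORC1, read 6.17 and 6.23 in untreated cells, 6.85 and 6.48 in o-HA cells, and 7.57 and 7.41 with n-HA (difference 1.30, SE 0.23). Efnb1, the transmembrane ligand ephrin B1, read 5.45 and 5.21 in untreated cells, 5.94 and 5.69 in o-HA cells, and 6.61 and 6.58 with n-HA (difference 1.26, SE 0.22). By limma adjusted p = 0.157 for both. Before normalization their bead intensities overlapped between the groups, at 151 and 124 in untreated cells against 193 and 139 with n-HA for Castor1, and at 103 and 81.6 against 119 and 101 for Efnb1. Their position above the untreated cells therefore came with the scaling of the dimmer n-HA arrays. The Castor1 promoter lies at chr11:4217975-4218274 on the plus strand and held 2 GC boxes, and that of Efnb1 at chrX:99135811-99136110 on the plus strand and held 1 CCAAT box. Capitals mark the same motifs as above.
Castor1: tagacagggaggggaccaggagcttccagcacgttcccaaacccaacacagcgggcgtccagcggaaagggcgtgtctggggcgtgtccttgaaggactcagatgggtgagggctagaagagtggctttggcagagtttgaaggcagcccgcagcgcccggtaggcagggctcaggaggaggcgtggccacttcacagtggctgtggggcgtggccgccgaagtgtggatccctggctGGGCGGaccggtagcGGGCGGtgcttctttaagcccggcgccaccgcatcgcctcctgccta
Efnb1: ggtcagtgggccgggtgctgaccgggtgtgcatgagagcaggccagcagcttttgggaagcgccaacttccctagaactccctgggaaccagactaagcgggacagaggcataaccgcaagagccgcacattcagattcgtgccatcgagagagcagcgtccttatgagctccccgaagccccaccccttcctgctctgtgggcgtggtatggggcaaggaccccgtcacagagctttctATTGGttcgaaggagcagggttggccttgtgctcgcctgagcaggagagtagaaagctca

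Plec, the cytoskeletal linker plectin, read 6.60 and 6.18 in untreated cells against 8.91 and 7.72 with n-HA. Lrp10, a receptor of the low-density lipoprotein receptor family, read 8.16 and 8.16 against 9.99 and 9.23. Ube2e2, a ubiquitin-conjugating enzyme, read 6.45 and 6.51 against 7.86 and 7.52. In all of these n-HA replicate 1 lay above replicate 2. Also among the widest high gaps were Pex6, an ATPase that recycles the peroxisomal import receptor (6.97 and 6.96 against 8.81 and 8.0), Agps, which starts ether lipid synthesis in peroxisomes (5.75 and 5.43 against 7.37 and 6.70), and Hsd3b7, an enzyme of bile acid synthesis (7.44 and 7.38 against 9.0 and 8.41, second probe 0.70). The second probe of Pex6 went the other way, at 8.01 and 8.12 against 6.32 and 7.65. The rest of the 15 were Pomt2, which adds mannose to dystroglycan (1.59, SE 0.42), the Mediator subunit gene Med25 (1.44, SE 0.34, second probe -0.76), Cox6b2, a subunit of cytochrome c oxidase (1.51, SE 0.37), and 2310039H08Rik (1.77, SE 0.49).

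**Figure D3:**
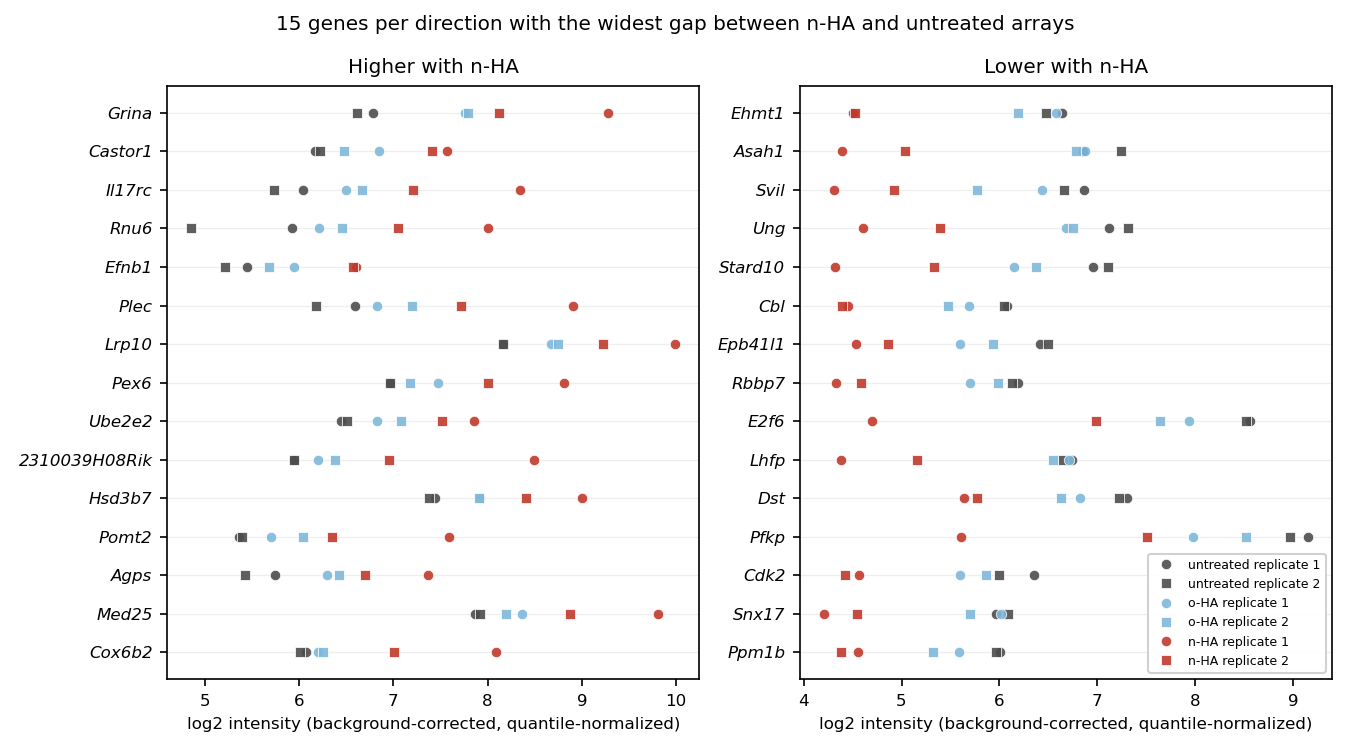
Log2 intensity (x axis, background-corrected and quantile-normalized) on each array for the 15 genes per direction with the widest gap between n-HA (red) and untreated (grey) arrays, with the o-HA arrays in blue; circles are replicate 1 and squares replicate 2. In each gene both red marks lie on the same side of both grey marks, and Ehmt1, Efnb1, Cbl and Dst have their red marks closest together.

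Genes that make, bind or break down hyaluronan could mostly not be compared. Of 36 such genes on the array 6 were tested, 4 were higher and 2 lower, and 0 agreed in either direction. Has1 and Hmmr were detected on 0 of the 6 arrays, Has2 on n-HA replicate 2 only and Has3 on 1 untreated array. Cd44 had 6 probes, of which the brightest read 5.01 and 4.70 in untreated cells and 5.00 and 4.25 with n-HA, with 1 array of each group detecting it. The groups overlapped (difference -0.23, SE 0.31), and without n-HA replicate 2 the sign turned, to 0.15. The hyaluronidase gene Hyal2 stood highest of the 6, at 5.58 and 5.48 in untreated cells against 7.29 and 6.10 with n-HA, which fell short of the rule. Cemip2, a cell-surface hyaluronidase, read 8.68 and 8.53 against 8.86 and 8.40, and Gusb, the lysosomal beta-glucuronidase, 9.42 and 9.45 against 9.71 and 9.53.

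The cells carried cardiac muscle transcripts in both groups. Of 11 cardiomyocyte markers on the array, 9 were detected on both untreated arrays and 8 on both n-HA arrays, and Gata4 was detected on 0 arrays. Myl4, the atrial essential light chain of myosin, read 11.86 and 11.52 in untreated cells against 13.24 and 11.69 with n-HA. The groups overlapped (difference 0.77, SE 0.50), and without n-HA replicate 1 the difference was -0.015. Nppa, the atrial natriuretic peptide, read 7.19 and 7.0 against 7.66 and 7.17 and also overlapped (0.32, SE 0.26; -0.61 without normalization). Tnnc1, the calcium-binding troponin subunit, lay below the untreated cells on both arrays, at 11.21 and 11.36 against 10.67 and 10.35, with a gap just under the limit of the rule (difference -0.77, SE 0.22, adjusted p = 0.171 by limma). Myh6 (-0.36, SE 0.22) and Nkx2-5 (-0.42, SE 0.28) were lower by less, and the 2 tested probes of Actc1 stood at 1.19 (SE 0.52) and 0.04 (SE 0.24), of which the second turned to -0.64 without normalization.

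Sarcomere and Z-disc genes were near the middle of all genes. Among the 25 tested, 12 had n-HA above untreated cells and 13 below, and the median difference was -0.04 beside 0.04 over all genes. Of these, 1 agreed higher (4%) and 3 lower (12%), against 3.55% and 7.28% of all 4285 genes tested with 1 probe per gene. Mybpc3, myosin-binding protein C of the thick filament, read 10.91 and 10.89 in untreated cells against 8.96 and 9.99 with n-HA. Myl7, the atrial regulatory light chain, read 5.54 and 5.31 against 4.53 and 4.64 (at least 1.5-fold lower), and Tpm2, beta-tropomyosin, was at least 1.36-fold lower. These thick and thin filament genes were bright for Mybpc3 and near the detection limit for the others. Des, the muscle intermediate filament desmin, was the one on the high side, at 8.35 and 8.64 against 9.36 and 9.34, with n-HA replicates close together (difference 0.86, SE 0.22; -0.059 without normalization, where all genes had a median of -0.42).

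Of the cardiac transcription factors 6 of 9 were higher and 3 lower, and 1 agreed lower (11.1%). This was Tbx5, a T-box factor of the atria and the conduction system, at 7.67 and 7.57 in untreated cells, 6.67 and 6.47 in o-HA cells, and 4.89 and 6.25 in n-HA cells (difference -2.05, SE 0.44, adjusted p = 0.164 by limma). Both n-HA arrays detected it and lay at least 1.32 below the untreated ones, while a second Tbx5 probe was detected on 0 arrays. Among 19 calcium handling and ion channel genes 11 were higher and 8 lower. Of these, 1 agreed higher (5.26% against 3.55% of all genes) and 2 lower (10.5% against 7.28%). Slc8a1, the sodium-calcium exchanger, read 8.19 and 8.15 against 9.50 and 8.90. Kcnq1, a potassium channel subunit of repolarization, read 6.47 and 6.51 against 5.77 and 5.76, and Cacnb2, a subunit of the L-type calcium channel, was at least 1.27-fold lower. The exchanger was thus high and these channel subunits low, but such shares were near those of all genes. In the hypertrophy and foetal programme 9 of 13 genes were higher and 4 lower (median 0.32, against all genes -0.14 without normalization). This median was carried by replicate 1, with 0.56 on that array and -0.06 on replicate 2. In this list 1 gene agreed higher (7.69% against 3.55% of all genes), Rcan1, the inhibitor of calcineurin (7.37 and 7.34 against 8.85 and 7.97).

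Genes of the actin cytoskeleton and of adhesion agreed lower more often than genes at large. Of 43 tested, 18 were higher and 25 lower (median -0.16). Agreeing genes numbered 8 on the low side (18.6% against 7.28% of all genes) and 2, Efnb1 and Plec, on the high side (4.65% against 3.55%). The lists were chosen with earlier results of these data known. A share above that of all genes, in this or any other list, is therefore a description only. Beside Svil, Epb41l1 and Dst, described above, Sptbn1, the beta-spectrin of the membrane skeleton, read 10.36 and 9.98 against 6.14 and 8.76, with its dim second probe at 0.09. Subunits of the Arp2/3 complex, which nucleates branched actin, were low as well, Arpc1a at 8.92 and 8.89 against 5.31 and 8.11, and Arpc1b at 8.24 and 8.30 against 6.55 and 7.52. Replicate 1 was the lower array for Sptbn1, Arpc1a and Arpc1b. Itga2b, an integrin alpha chain, had close replicates, at 5.87 and 6.08 against 5.27 and 5.21, and Cttn, the Arp2/3 activator cortactin, was undetected with n-HA at 5.12 and 5.00 against 4.33 and 4.39. The median of the list lay below that of all genes with every scaling tried, at -0.25 relative to it without normalization and at -0.14 with the authors' values.

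Smooth muscle markers did not go 1 way. Of 4 such markers 2 were detected, Acta2 and Tagln, and the defining genes Myh11 and Cnn1 were detected on 0 arrays. The summed linear level of the markers was 4925 and 4392 in untreated cells against 10483 and 5143 with n-HA, almost all of it from the brightest Acta2 probe (12.23 and 12.06 against 13.35 and 12.29). A second Acta2 probe was also higher, at 6.71 and 6.63 against 8.37 and 7.12. The other Acta2 probes were lower on both n-HA arrays, at 6.55 and 6.37 against 4.67 and 5.98, and at 6.24 and 6.49 against 5.60 and 5.79. Tagln read 6.44 and 6.41 against 5.02 and 6.51, so it was low on replicate 1 only. Their part in the values of the actin genes was not tested. Of 8 fibroblast markers 7 were detected on 0 arrays, among them Col1a1, Dcn and Postn, and their summed level was 164 to 171 in untreated cells and 177 to 185 with n-HA, near background. Pecam1 and Cdh5 of endothelium and Ptprc and Lyz2 of leukocytes were likewise detected on 0 arrays. In the wider list of matrix and fibroblast genes 8 of 14 were higher, and 1 agreed higher (7.14% against 3.55% of all genes). This was Mmp14, a membrane-bound collagenase (8.46 and 8.49 against 9.86 and 9.30).

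Growth factor and ubiquitin enzyme lists had medians on the low side. Of 16 growth factors and receptors 4 were higher and 12 lower (median -0.42). Among these 1 agreed lower (6.25%, below the 7.28% of all genes), Tgfbr3, the betaglycan co-receptor of TGF-beta, at 7.22 and 7.21 against 5.36 and 6.50. Of 32 ubiquitin ligases and conjugating enzymes 9 were higher and 23 lower (median -0.52), with 3 agreeing lower (9.38%) and 1 higher (3.12%). The low ones were Cbl, Rnf123, a ubiquitin ligase for the cell cycle inhibitor p27 (6.46 and 6.52 against 4.55 and 5.49), and Ube2f, which conjugates the ubiquitin-like NEDD8 (6.86 and 6.76 against 4.90 and 5.91, other probes -1.13 and -0.02). Both list medians were below that of all genes with every scaling, at -0.37 and -0.74 relative to it without normalization. Ube2e2 was the one ubiquitin enzyme gene that agreed higher by the 1.5-fold rule, among the 9 that were higher.

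Interferon genes leaned to the low side, and Toll-like receptor genes leaned to neither. Of 10 tested NF-kB, Toll-like receptor and cytokine genes, 5 were higher and 5 lower (median 0.06 beside 0.04 over all genes). Of these, 2 agreed higher (20% against 3.55% of all genes) and 0 lower (0% against 7.28%). Myd88, the adaptor of Toll-like receptors, read 7.55 and 7.44 in untreated cells against 8.76 and 8.26 with n-HA. Tab1, which activates the kinase TAK1, read 5.97 and 5.95 against 8.46 and 6.62, but its other probes stood at -0.90 and -0.56. Irak2, low on both probes as above, was not in this list. Of 17 interferon response and antigen presentation genes 6 were higher and 11 lower (median -0.32). Among these 3 agreed lower (17.6% against 7.28% of all genes) and 0 higher (0% against 3.55%). Irf1 read 6.96 and 7.04 against 5.19 and 6.18, and Irf9, the DNA-binding part of the interferon-induced complex ISGF3, and H2-T23, a non-classical class I molecule, were at least 1.20-fold and at least 1.48-fold lower. Among 10 immediate early genes 5 were higher and 5 lower, and 1 agreed lower (10% against 7.28% of all genes). This was Sik1, a salt-inducible kinase (8.20 and 8.28 against 5.38 and 7.17).

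Cytosolic ribosomal proteins, also a list chosen with earlier results known, agreed higher more often than genes at large, with none lower. Of 49 tested, 27 were higher and 22 lower (median 0.13), with 9 agreeing higher (18.4% against 3.55%) and 0 lower (0% against 7.28%). Rpl34 read 8.84 and 8.93 in untreated cells, 9.32 and 9.53 in o-HA cells, and 9.87 and 9.84 with n-HA (difference 0.97, SE 0.21, adjusted p = 0.164 by limma). Rps27 read 6.10 and 6.14 against 7.01 and 7.09 (difference -0.011 without normalization), and Rps27l, a relative of Rps27, 5.28 and 5.36 against 6.12 and 6.17. In these 3 genes the n-HA replicates differed by less than 0.1. Rpl24 had replicate 2 clearly the higher, at 6.68 and 6.69 against 7.47 and 8.03. Rps20, Rps24, Rpl23, Rps14 and Rpl38 had replicate 1 well above replicate 2, as in Rps20 at 6.99 and 6.86 against 9.63 and 7.89.

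The ribosomal genes that did not agree were of another kind. Several of the brightest were low on n-HA replicate 1 and level on replicate 2, such as Rps2 (14.60 and 14.60 against 12.87 and 14.40), Rps13 (13.91 and 13.99 against 12.73 and 13.82) and Rps6 (12.70 and 12.80 against 11.18 and 12.73). The list's median was accordingly 0.002 on n-HA replicate 1 and 0.29 on replicate 2. Relative to all genes it was 0.09, and it turned to -0.11 without normalization and to -0.01 among probes detected on all 4 arrays. Ribosomal protein genes have many near-identical pseudogenes, so a probe may read more than its own gene.

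Other steps of protein making and breakdown differed among themselves. Of 27 translation factors 13 were higher and 14 lower. Among them 1 agreed higher (3.70% against 3.55% of all genes) and 2 lower (7.41% against 7.28%). The helicase gene Eif4a1 was the high one (5.04 and 4.92 against 6.98 and 5.63). Eif2b5, the catalytic subunit of the exchange factor eIF2B, agreed lower (7.64 and 7.72 against 5.21 and 6.87, second probe 0.70) beside Eef2. Of 39 splicing factors and hnRNP genes 17 were higher and 22 lower. Of these, 8 agreed lower (20.5% against 7.28% of all genes) and 0 higher (0% against 3.55%). Rbm39, a splicing coactivator, read 5.91 and 5.71 against 4.79 and 4.69, at least 1.96-fold lower. Sart1 of the tri-snRNP read 8.43 and 8.53 against 5.92 and 7.27, Srsf5 7.70 and 7.60 against 5.07 and 6.74, and Sart3, which recycles U4 and U6, 6.57 and 6.96 against 4.80 and 5.73. The other 4 were Hnrnpk, Sf1, Hnrnpa2b1 and Ddx5, at -1.74, -1.33, -0.98 and -2.39. The list's median relative to all genes was -0.12, and -0.39 without normalization.

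Proteasome genes leaned to the high side, with 16 of 24 higher and 8 lower (median 0.47). Among these 2 agreed higher (8.33% against 3.55% of all genes) and 0 lower (0% against 7.28%). Psmd8, a lid subunit, read 6.52 and 6.61 against 8.10 and 7.42, and Psmc2, an ATPase of the base, 5.48 and 5.62 against 6.61 and 6.26. The median relative to all genes was 0.43 here and 0.12 without normalization. It was carried by replicate 1, with 0.43 on that array and 0.08 on replicate 2. Of 24 heat shock proteins and chaperones 11 were higher and 13 lower, with 4 agreeing lower (16.7% against 7.28% of all genes). Hspa8, the constitutive Hsc70, read 12.44 and 12.35 against 8.33 and 11.42, though a dimmer second probe stood at 0.14. Dnajc5, a co-chaperone of secretory vesicles, read 9.12 and 8.68 against 7.51 and 7.66, and Dnajb6 7.94 and 7.92 against 6.65 and 7.23. Hspd1, the mitochondrial Hsp60, was at least 1.31-fold lower. In the unfolded protein response and ATF4 list 6 of 19 were higher and 13 lower (median -0.28). Of these, 2 agreed lower (10.5% against 7.28% of all genes). They were Vldlr, a lipoprotein receptor induced by endoplasmic reticulum stress (at least 1.78-fold lower), and the pseudokinase gene Trib3 (6.69 and 6.88 against 4.45 and 5.99).

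**Figure D4:**
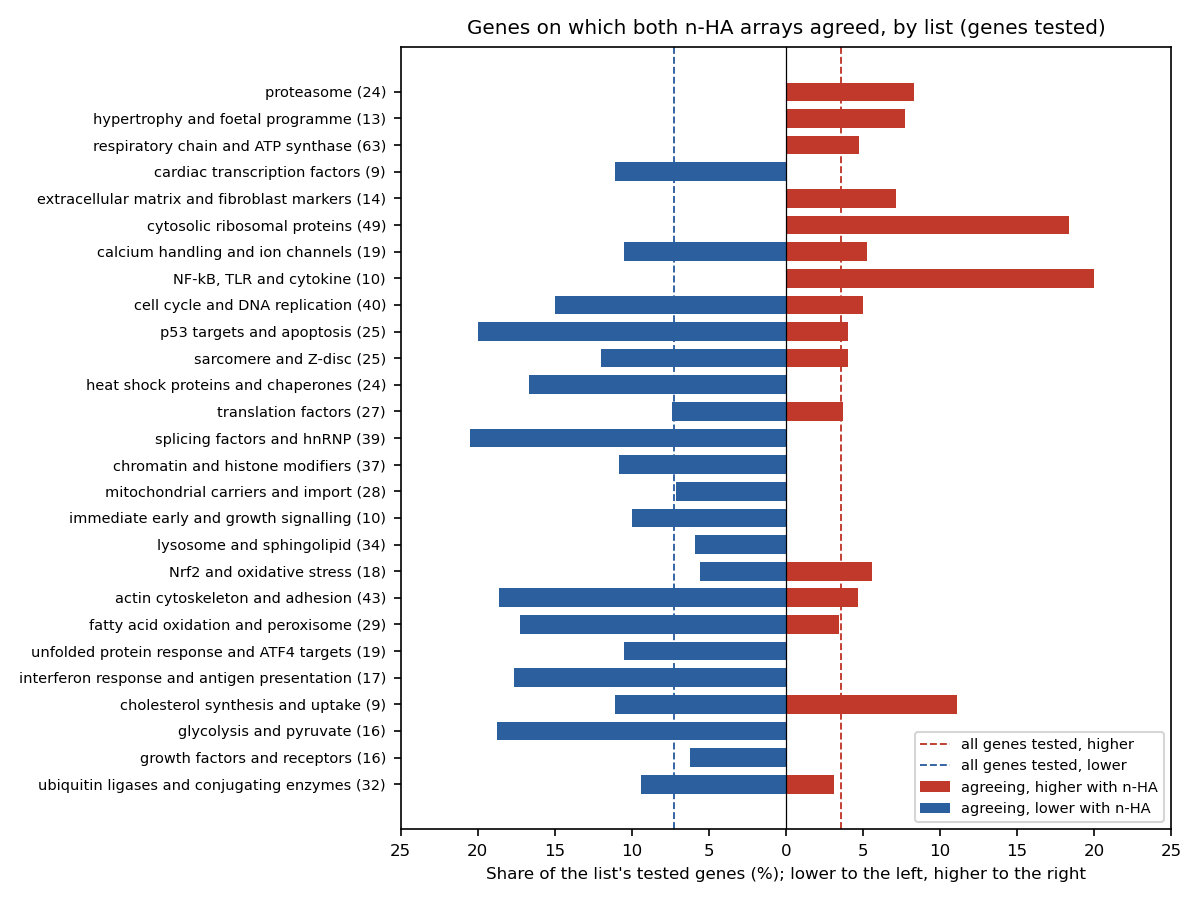
Share of each list's tested genes (x axis, %; number tested in brackets) on which both n-HA arrays lay at least 1.5-fold above (red, to the right) or below (blue, to the left) both untreated arrays, ordered by the list's median difference. Dashed lines give the shares over all 4285 genes tested, 3.55% higher and 7.28% lower; lists of about 10 genes are moved far by 1 gene.

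Energy metabolism divided by pathway. Of 63 respiratory chain and ATP synthase genes 43 were higher and 20 lower (median 0.29), with 3 agreeing higher (4.76%) and 0 lower. All 3 were subunits of complex I, NADH dehydrogenase. Cox6b2 of cytochrome c oxidase, which agreed higher with a wider gap (0.94), was not in this list. Ndufb6 read 8.55 and 8.50 in untreated cells against 9.62 and 9.23 with n-HA (-0.0069 without normalization), Ndufv2 5.17 and 5.06 against 7.05 and 5.83, and Ndufb8 7.71 and 7.52 against 10.93 and 8.35. Replicate 1 stood far above replicate 2 for Ndufv2 and Ndufb8. The list's median was 0.24 on replicate 1 and 0.11 on replicate 2, and relative to all genes it was 0.12 or more under each scaling. The share that agreed higher was near the 3.55% of all genes, while the share that agreed lower was 0% against 7.28%. Most of the 43 higher genes did not meet the rule.

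Glycolysis leaned the other way, with 6 of 16 genes higher and 10 lower (median -0.38). Of these, 3 agreed lower (18.8% against 7.28% of all genes). Beside Pfkp, Eno3, the muscle enolase, read 9.52 and 9.49 against 8.18 and 8.77, and Aldoa, the muscle aldolase, 5.43 and 5.37 against 4.75 and 4.48 (at least 1.47-fold lower). Of 29 fatty acid oxidation and peroxisome genes 13 were higher and 16 lower (median -0.21). Among these 5 agreed lower (17.2% against 7.28% of all genes) and 1, Pex6, higher (3.45% against 3.55%). Pex6 was read by the probe brighter over all 6 arrays, which include those with n-HA. Its other probe was the brighter one in untreated cells and stood at -1.08. Pdk2, a kinase that shuts off pyruvate dehydrogenase, read 6.07 and 5.84 against 4.84 and 4.85, where only 1 n-HA array detected it. Pxmp2, a peroxisomal membrane channel, read 7.13 and 7.32 against 4.98 and 6.13, and Acaa2, the mitochondrial thiolase, 6.88 and 6.66 against 5.06 and 5.87. Both other probes of Acaa2 were lower too, at -0.58 and -1.06. Etfb, which passes electrons from fatty acid oxidation to the respiratory chain, was among the brightest of the low genes, at 13.65 and 13.65 against 11.65 and 12.94. Against all genes the medians of both lists were negative under each scaling, and nearest to 0 for fatty acid oxidation with the authors' values, at -0.02.

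Cholesterol genes were lower in 7 of 9 cases (median -0.36). Of these 9, 1 agreed each way (11.1%, against 3.55% of all genes higher and 7.28% lower). Hmgcs1, which makes HMG-CoA, read 8.0 and 8.15 against 10.19 and 8.83, and Cyp51, a later enzyme of the same pathway, was at least 1.59-fold lower. Of 34 lysosome and sphingolipid genes 14 were higher and 20 lower, with 2 agreeing lower (5.88%, below the share of all genes), Asah1 and Ctsa, the protective protein cathepsin A (8.53 and 8.60 against 5.28 and 7.81). Of 28 mitochondrial carriers and import genes 11 were higher and 17 lower, with 2 agreeing lower (7.14% against 7.28% of all genes). Mtch2, an outer membrane protein, read 11.49 and 11.38 against 7.93 and 10.19, and Slc25a12, the aspartate-glutamate carrier, 7.10 and 7.14 against 5.03 and 6.42. Among 18 Nrf2 and oxidative stress genes 7 were higher and 11 lower. Here 1 agreed each way (5.56%, against 3.55% of all genes higher and 7.28% lower). Nqo1, a quinone reductase, agreed lower (6.26 and 6.38 against 4.34 and 5.28). Gstm2, a glutathione transferase, agreed higher at 8.95 and 8.80 against 10.71 and 9.58, with other probes at 1.53 and -1.29, and the members of this gene family are near-identical in sequence.

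**Figure D5:**
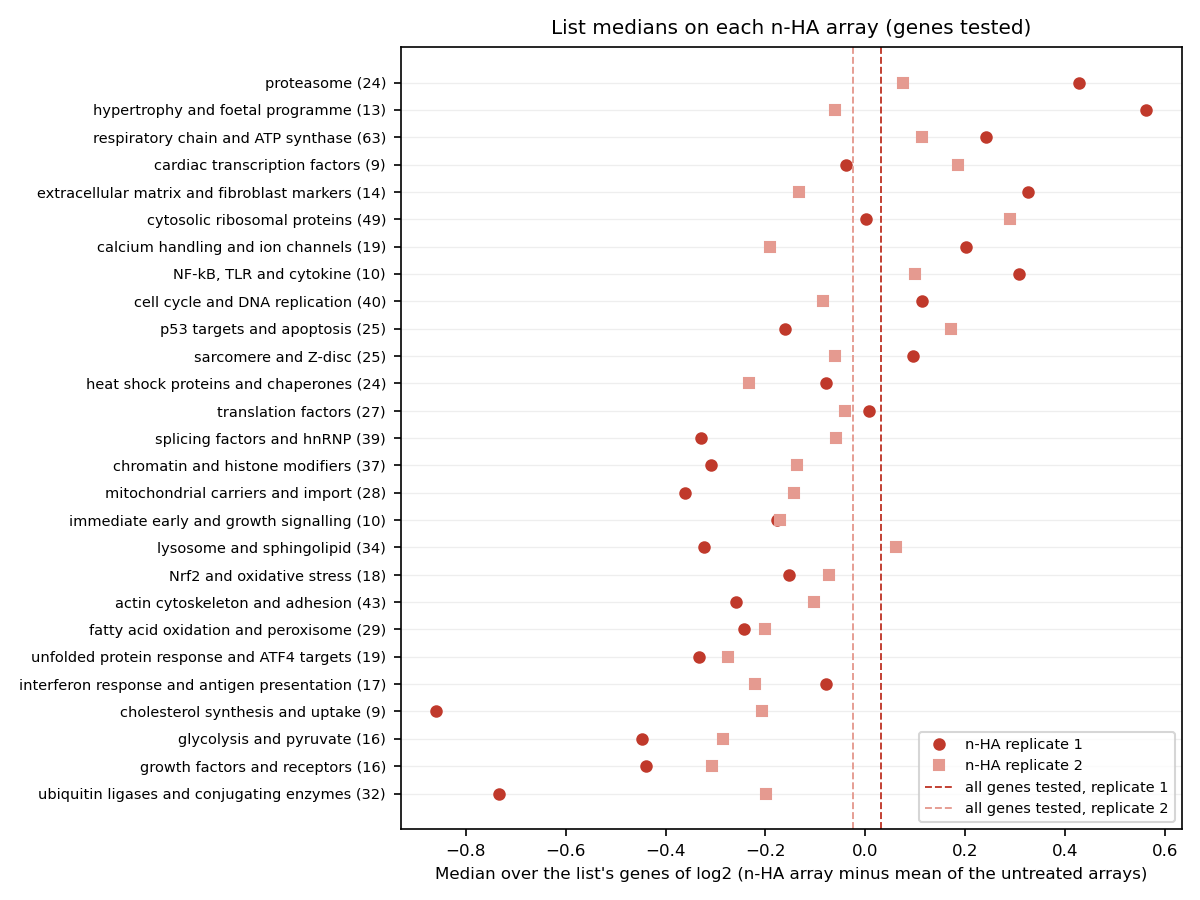
Median over each list's tested genes of log2 intensity on 1 n-HA array minus the mean of the untreated arrays (x axis), for n-HA replicate 1 (dark circles) and replicate 2 (pale squares); dashed lines give the same over all genes tested (0.03 and -0.02). The marks of ribosomal proteins (0.002 and 0.29) and of lysosomal genes (-0.32 and 0.06) lie far apart, and those of glycolysis (-0.45 and -0.28) and of growth factors (-0.44 and -0.31) lie on the low side on both arrays.

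Of 37 chromatin and histone modifiers 15 were higher and 22 lower, with 4 agreeing lower (10.8%, against 7.28% of all genes) and 0 higher. Carm1, an arginine methyltransferase for histone H3, read 6.55 and 6.83 in untreated cells against 5.18 and 5.33 with n-HA. Rbbp5, a core subunit of H3 lysine 4 methyltransferases, read 7.36 and 7.44 against 6.45 and 6.74. Carm1 and Rbbp5 were detected on both n-HA arrays, and their replicates lay close together. Prmt7, another arginine methyltransferase, read 7.69 and 7.83 against 4.63 and 7.11, with other probes at 1.35 and -0.88. Ezh2, the H3 lysine 27 methyltransferase, was lower with a gap under the limit (6.27 and 6.04 against 5.51 and 5.49), and was named after its values were seen.

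Of 40 cell cycle and DNA replication genes 20 were higher and 20 lower, and 6 agreed lower (15% against 7.28% of all genes) and 2 higher (5% against 3.55%). The list's median difference was 0.05. Beside Ung, E2f6 and Cdk2, Mcm10, a replication initiation factor, read 7.60 and 7.43 in untreated cells, 6.26 and 6.47 in o-HA cells, and 4.76 and 6.36 with n-HA. Cdc25b, a phosphatase that activates cyclin-dependent kinases, and Cdk9, the kinase that releases paused polymerase, stood at -1.35 and -1.08. The high ones were Cenpa, the histone H3 of centromeres (5.99 and 6.21 against 7.96 and 7.13), and Rpa3, a subunit of the single-strand DNA binding complex (5.86 and 5.68 against 6.50 and 6.54; -0.086 without normalization). Of 25 p53 target and apoptosis genes 12 were higher and 13 lower, with 5 agreeing lower (20%) and 1, Grina, higher (4%). Hipk2, a kinase that phosphorylates p53, read 6.57 and 6.57 against 5.56 and 5.64, and Birc5, the mitotic and anti-apoptotic survivin, 10.14 and 10.17 against 7.84 and 9.41, with other probes at -0.95 and -0.93. Birc5 had replicates far apart and Hipk2 close together. Pawr, a promoter of apoptosis, read 6.91 and 6.93 against 5.00 and 5.95, the stress gene Gadd45g 6.54 and 6.58 against 5.07 and 5.92, and the p53-induced sestrin gene Sesn1 4.94 and 4.98 against 4.34 and 4.26.

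Reference genes lay slightly to the low side and none met the 1.5-fold rule. Of 8 tested, 2 were higher and 6 lower (median -0.17 beside 0.04 over all genes), and 0 agreed in either direction. Actb read 14.20 and 14.20 in untreated cells against 14.40 and 13.99 with n-HA, and Gapdh 12.84 and 12.85 against 12.85 and 12.61. Tbp, the TATA-binding protein, read 6.0 and 6.03 against 5.66 and 5.87. Hprt and Tfrc differed between the n-HA replicates by more than 1, at 4.66 and 6.20, and at 8.86 and 10.20.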

How the data were processed

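RNA of HL-1 cells was read on 6 arrays of 1 Illumina MouseRef-8 chip. The authors deposited bead intensity per probe from BeadStudio 3.3, on a linear scale and not normalized, with a detection p-value against negative control beads, and a second table of intensity values that the authors normalized by cubic spline. The median number of beads behind a value was 41. Intensities were background-corrected (limma 3.58.1 in R 4.3.3, negatives inferred from detection p-values, offset of 16), quantile-normalized over the 6 arrays and put on the log2 scale. A mean per group was fitted to all 6 arrays (lmFit and eBayes, 3 residual degrees of freedom), and two-sided p-values were adjusted over 5378 probes by Benjamini-Hochberg. The scripts were tested on simulated data with the same spread on every array. The unequal spread seen here, with an SD of the replicate difference of 0.95 for n-HA against 0.26 for untreated cells, was not simulated. Every adjusted p given is from limma. An "at least" fold sets the untreated mean against the lowest detected level where no n-HA array detected the probe.

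Of the probes 23978 carried 1 gene symbol, 0 several and 1719 none. The members and the 32 gene lists were chosen with earlier results of these data known. Genes were named as the 15 widest gaps per direction, genes agreeing on all of at least 2 probes, up to 4 agreeing members per list and direction, and a panel of cardiac and hyaluronan genes. In lists a gene was read by its brightest probe. Values of Etfb, Hnrnpk and other list members beyond these were added after their values were seen. Whether replicates came from separate cultures is not in the labels. The p-values then measure only the spread between these arrays, which may be technical, and precision is limited by how few arrays there were. The authors' own test was not rerun.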

Additional observations from a re-analysis of the deposited data

How the results depend on the processing

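The count of probes past the adjusted threshold, 0, was the same with no background correction, an offset of 50, detection on all 4 or at least 1 of the arrays, the 4 compared arrays alone, and array weights. It was 1466 without normalization between arrays (all lower), 113 with the authors' normalized values (26 higher, 87 lower) and 7 with no filter on dim probes (all lower). Leaving out 1 array gave 0 to 3172, namely 1149 without n-HA replicate 1, 3172 without n-HA replicate 2 and 0 without any other array. Agreeing probes, 175 higher and 420 lower, numbered 61 and 127 with no background correction, 77 and 153 with an offset of 50, 0 and 1555 without normalization, 299 and 459 with the authors' values, and 165 and 154 when detected on all 4 arrays. With any gap above 0 they numbered 1340 and 1694, and with a gap of at least 1 they numbered 10 and 93. Leaving out 1 array gave 167 to 1252 higher and 338 to 1436 lower, with 321 and 344 without untreated replicate 1, 298 and 338 without untreated replicate 2, 350 and 566 without n-HA replicate 1, and 1252 and 1436 without n-HA replicate 2. Fewer arrays make the rule easier to meet, and the cause of the other shifts was not tested.

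Over 124 named probes and 16 alternatives, 1558 of 1902 values kept their direction and side of the threshold, 334 kept the direction and passed it, and 10 turned sign. The detection filters, the replicate block and the array weights leave a probe's difference unchanged. Its sign could not turn under these alternatives, so their part of the kept directions was fixed beforehand. Without normalization the dimmer Actc1 probe stood at -0.64, Nppa at -0.61, Rpa3 at -0.086, Des at -0.059, Rps27 at -0.011 and Ndufb6 at -0.0069. Leaving out 1 array gave -0.14 (without untreated replicate 1) to 0.22 for that Actc1 probe, which was also below 0 at -0.089 without n-HA replicate 1. It gave -0.015 (without n-HA replicate 1) to 1.53 for Myl4 and -0.39 to 0.15 (without n-HA replicate 2) for Cd44.

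With the replicate number as a block 0 probes passed (lowest adjusted p = 0.203 by limma, 1216 at an unadjusted p under 0.05 against 1290). Replicates of the same number deviated together with r = 0.17 for n-HA and untreated cells, -0.13 for o-HA and untreated cells and -0.04 for n-HA and o-HA. Whether replicates of the same number shared a culture or a batch was not tested. Dim probes set a further limit, since 555 probes were detected on both untreated and neither n-HA array and can give only a bound there.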
